A study of Mus musculus with 4 samples.

Results

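Cd63, Lipa and Lyz2 are 3 of the 397 genes of a targeted mouse immune panel that was read in single cells from the brains of 5XFAD mice. Each encodes a protein of the lysosome. They were taken by name and described across the cells that hold reads of Trem2, the receptor by which microglia sense lipids and amyloid, by how many of Apoe, Cst7 and Itgax each cell had reads for. They were chosen by their measured levels along that number and in macrophages, neutrophils and T cells, so these values are given as a description and carry no test.

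There were 4 libraries, each from 1 male mouse aged 9 months. Of these mice, 2 were Abi3-/- and 2 were Abi3+/+, and they are called mouse 1 and mouse 2 of their genotype here. Every mouse carried 5XFAD, amyloid transgenes with familial Alzheimer's disease mutations that are driven by the neuronal Thy1 promoter, so no mouse was free of the amyloid transgenes. The Abi3 null allele came from a C57BL/6N line and was crossed to 5XFAD mice of B6SJL origin. Cells came from the right hemisphere without cerebellum and olfactory bulb. The tissue was dissociated with Accutase in the cold, and myelin was removed. Abi3 is not on the panel, so the genotype could not be checked in these reads.

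CD63 is a tetraspanin, a membrane protein of late endosomes, lysosomes and the small vesicles that cells release from them. LIPA is lysosomal acid lipase, which splits cholesteryl esters and triglycerides that reach the lysosome. LYZ2 is lysozyme M, an enzyme that cuts bacterial cell walls and whose gene is widely used as a mark of myeloid cells. Microglia near amyloid plaques are known to take on a disease-associated state with more Apoe, a lipid carrier, more Cst7, an inhibitor of lysosomal cathepsins, and more Itgax, the integrin CD11c.

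The start of each gene was read from RefSeq promoters of build GRCm38.p6 to see whether the 3 genes share a motif there. A window of 120 bases before each start was searched on both strands for 7 motifs, the PU.1 core GAGGAA, the ETS core pair GGAANTTCC, the TFEB core CACGTG, the CCAAT box, the GC box GGGCGG, the AP-1 site TGANTCA and the TATA letters TATAAA. None overlapped another in the 3 windows. In the 30 bases shown for each gene, capitals mark the motif that was found.
Cd63, chr10:128909274-128909303, plus strand: ctagacaagggcTTCCTCaaagggttttct
Lipa, chr19:34527484-34527513, minus strand: gtggactgccctgATTGGctgtgtgaaagt
Lyz2, chr10:117282357-117282386, minus strand: atagatcggtaGGAACTTCCtgttttgcac
No motif was found in more than 1 of the 3 windows. Cd63 held GAGGAA, the core letters of PU.1 sites, on the opposite strand, as did 11.6% of 32817 promoters. Lipa held CCAAT on the opposite strand, as did 21.3%. Lyz2 held GGAANTTCC, a head-to-head pair of ETS cores, which was rare, at 0.472% of promoters. CACGTG, the core of the element that TFEB binds at many lysosomal genes, was in none of the 3 windows and in 3.66% of all. GGGCGG was in 26.5%, TGANTCA in 3.41% and TATAAA in 6.35% of all promoters, and none was in the 3 windows. The start used for Cd63 lies inside the span of the gene, which runs from base 128896231 to 128912822 of chromosome 10 and has 3 curated transcripts. Lipa spans 34492316 to 34527474 of chromosome 19 with 2 transcripts, and Lyz2 spans 117277541 to 117282272 of chromosome 10 with 1.

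Of 21172 deposited cells, 13820 had 40 or more genes and at most 59300 reads. They held 61058416 and 102612276 reads in Abi3-/- mice 1 and 2, and 82557555 and 78817636 reads in Abi3+/+ mice 1 and 2. Pairs of libraries shared 6 to 18 cell names, at most 0.560% of the smaller library. A Trem2 read, without enough markers of another cell type, defined 13067 Trem2-positive cells, which numbered 2184 and 4228 in the Abi3-/- mice, against 3659 and 2996 in the Abi3+/+ mice. The label of microglia was checked in these cells with a list of marker genes in each mouse. C1qa was read in at least 99.7%, Fcgr3 in at least 99.1%, Selplg in at least 97.8% and Cx3cr1 in 76.2% to 94.4%. Other genes of the list were less common, with Adgre1 in 81.0% to 87.2%, Lag3 in 66.7% to 87.3% and Cd33 in 44.8% to 52.2%. Abi3+/+ mouse 2 had the lowest Cx3cr1 share. Values are whole reads, not molecules, so intervals and limits for shares cover counting error over cells only.

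Cd63 was read in most Trem2-positive cells. Its share was 94.0% (exact 95% interval 93.0% to 95.0%) in Abi3-/- mouse 1, 85.2% (84.1% to 86.2%) in Abi3-/- mouse 2, 79.8% in Abi3+/+ mouse 1 and 80.1% in Abi3+/+ mouse 2. Lyz2 was as common in the Abi3-/- mice, with 93.7% and 85.7%, but was read in 52.3% and 72.5% of cells of the Abi3+/+ mice. Lipa was the rare member, with 19.4%, 15.4%, 10.7% and 2.20% in the same order. Both Abi3-/- mice were above both Abi3+/+ mice for each gene, and on the mean log-normalised level 18.6% of 274 genes were higher in both Abi3-/- mice.

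Summed reads gave the same order of the genotypes. Summed over Trem2-positive cells, Cd63 took 10408 and 10078 CPM, its reads for each 1000000 panel reads, in the Abi3-/- mice, against 8120.5 and 8001 in the Abi3+/+ mice. Lyz2 took 12040 and 12254 in the Abi3-/- mice, against 6732 and 10711 in the Abi3+/+ mice. Lipa took 368, 294, 231 and 46.7, so Abi3+/+ mouse 2 stood well below the other 3 mice. The panel reads a short stretch of each transcript with its own primers, so levels of different genes are not compared. Lyz1, a near copy of Lyz2, is not on the panel, and whether its transcripts add to the Lyz2 reads was not tested.

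A cell with a read of a gene had many. The fewest reads in a kept cell with the gene were 9 to 11 for all 3 genes in every mouse, so the files hold no lower count of them in these cells. The median Cd63 count in Trem2-positive cells with a read was 224, 179, 139 and 167 in Abi3-/- mice 1 and 2 and Abi3+/+ mice 1 and 2. For Lipa it was 46, 41, 41 and 54.5, so the mouse with the fewest Lipa-positive cells had the highest median in them.

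Lyz2 and Cd63 were higher in cells with more of Apoe, Cst7 and Itgax, and Lipa differed far less. Of the Trem2-positive cells, 38.6% had reads of none of the 3 genes, 28.7% of 1, 18.7% of 2 and 13.9% of 3. Among cells with none, Cd63 was read in 85.0% and 68.6% of cells of the Abi3-/- mice, against 70.5% and 70.7% of the Abi3+/+ mice. Among cells with all 3 it was read in 99.1%, 99.2%, 98.8% and 98.2%, where the share is close to its ceiling. With none of the genes only Abi3-/- mouse 1 stood apart.

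Lyz2 shares ran over a wider range of values. Among cells with none of Apoe, Cst7 and Itgax it was read in 87.3% and 70.9% of cells of the Abi3-/- mice, against 35.9% and 57.7% of the Abi3+/+ mice. With 1 gene the shares were 91.9%, 85.3%, 53.8% and 76.1%. With 2 they were 97.5%, 95.9%, 84.3% and 93.7%, and with 3 they were 99.1%, 98.3%, 99.4% and 99.0%. The gap between the highest and the lowest mouse in this share was narrower at each number, and with 3 genes the share was close to its ceiling.

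**Figure D1:**
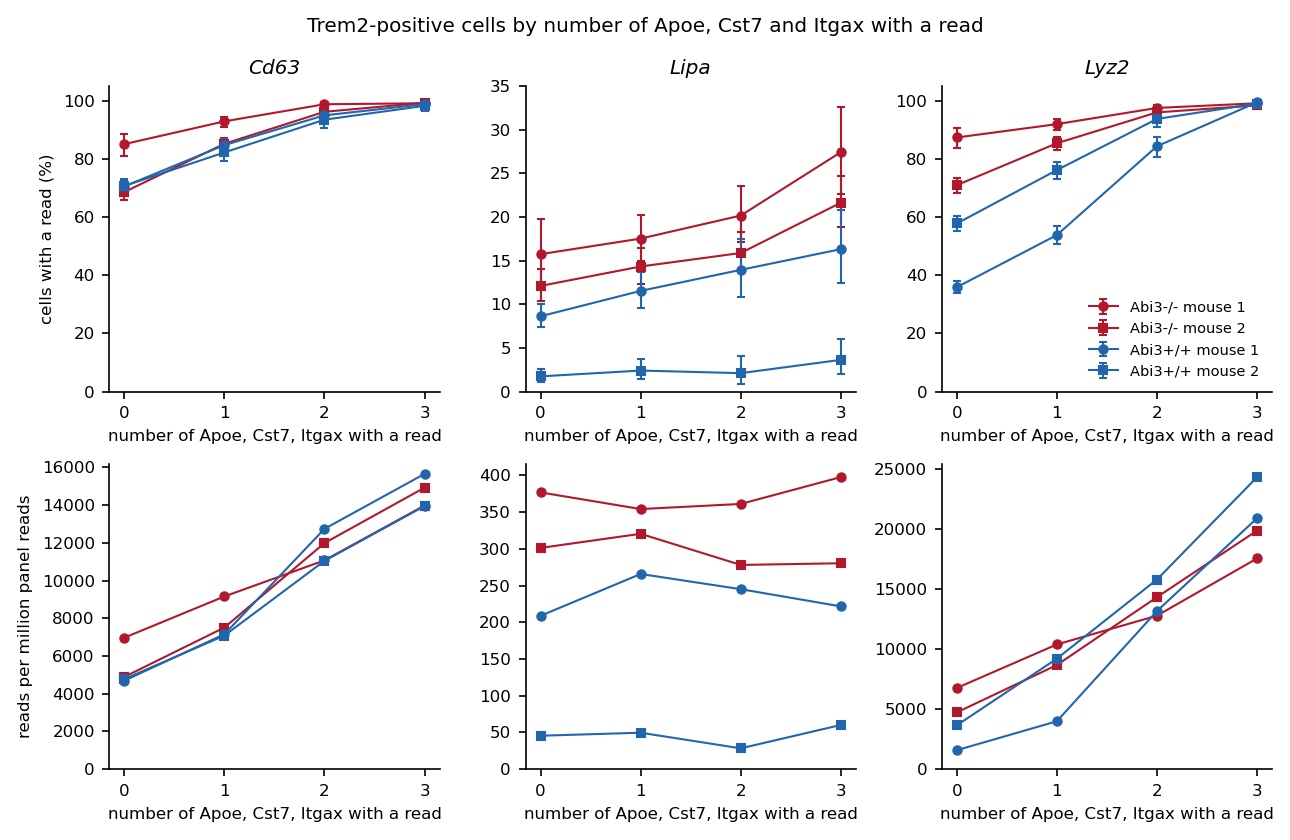
Share of Trem2-positive cells with a read (percent, upper row, bars are exact 95% intervals over cells) and CPM (lower row) of Cd63, Lipa and Lyz2 against the number of Apoe, Cst7 and Itgax with a read, 1 line per mouse (red Abi3-/-, blue Abi3+/+, circles mouse 1, squares mouse 2). Cd63 and Lyz2 are higher at each number in all 4 mice, their shares near the ceiling at 3, where Lyz2 still runs from 17526 to 24288 CPM, while Lipa in CPM differs more between mice than along the number.

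CPM gave the same direction along the number. Cd63 was at 6969 and 4890.3 with none of the 3 genes in the Abi3-/- mice, against 4691 and 4771 in the Abi3+/+ mice. With all 3 it was at 13977 and 14924, and then at 15654 and 13949. Lyz2 was at 6750 and 4718 in the Abi3-/- mice, against 1571 and 3643 in the Abi3+/+ mice with none. With all 3 it was at 17526 and 19843 in the Abi3-/- mice, against 20873 and 24288 in the Abi3+/+ mice, so the order of the genotypes was the opposite of that at none.

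The step was also taken on the mean log-normalised level, which is the natural log of 1 plus the reads per 10000 panel reads of the cell, averaged over cells. From none to 3 genes Cd63 differed by 1.83 ± 0.43 (SD over 4 mice, natural log units), with 1.19 and 2.07 in the Abi3-/- mice, against 2.12 and 1.94 in the Abi3+/+ mice. Lyz2 differed by 2.61 ± 1.06, with 1.38, 2.23, 3.85 and 3.0 in that order. Only Cst7, Apoe and Itgax, which set the number, had larger steps than Lyz2, and Cd63 came next at rank 5 of 274 genes with reads in every mouse. Of these 274 genes 28.1% were higher in all 4 mice and 38.7% were lower in all 4, and the rule for choosing the members used this contrast.

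No single passage carried the whole step. Cd63 differed by 0.68 from none to 1 gene, by 0.75 from 1 to 2 and by 0.40 from 2 to 3, each higher in 4 of 4 mice. For Lyz2 the passages were 0.78, 1.13 and 0.71, also higher in 4 of 4. In Abi3-/- mouse 1 the Lyz2 passages were 0.52, 0.44 and 0.41, and in Abi3+/+ mouse 1, which began lowest, they were 0.79, 1.85 and 1.21.

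Which of the 3 genes was read made some difference for Lyz2. In cells with only Apoe, Lyz2 was 0.88 ± 0.23 above cells with none, and with only Cst7 it was 0.78 ± 0.29 above, both in 4 of 4 mice. With only Itgax it was 0.47 ± 0.32 above, in 3 of 4 mice. For Cd63 the same differences were 0.72 ± 0.10 for Apoe, 0.64 ± 0.27 for Cst7 and 0.57 ± 0.24 for Itgax, which differed from each other by less than the SD over mice of the Cst7 and Itgax values.

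Among pairs of genes the highest for Lyz2 was the same in each mouse, but the order of the other pairs was not. Cells with Apoe and Cst7 but not Itgax held 13548 and 16363 Lyz2 CPM in the Abi3-/- mice, against 16361 and 18204 in the Abi3+/+ mice. Cells with Apoe and Itgax but not Cst7 held 11745 and 11603, and then 4337 and 13285. Cells with Cst7 and Itgax but not Apoe held 8882 and 9606, and then 6297 and 13340. In each mouse the pair of Apoe and Cst7 was highest. Apoe and Itgax came next in the Abi3-/- mice and last in Abi3+/+ mouse 1, while in Abi3+/+ mouse 2 the other pairs were nearly level. The rarest pair, Cst7 and Itgax, had 36 to 145 cells per mouse.

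Lipa had a higher share of cells with all 3 genes than with none in every mouse, and its level differed little. Its share with none of the 3 genes was 15.7%, 12.1%, 8.62% and 1.74%, and with all 3 it was 27.4%, 21.6%, 16.3% and 3.63%, in Abi3-/- mice 1 and 2 and Abi3+/+ mice 1 and 2. Its CPM with none were 377, 301, 209 and 45.4, and with all 3 they were 398, 280, 222 and 60.0. The log2 ratio of CPM, 3 genes over none, was 0.12 ± 0.21 for Lipa, against 1.48 ± 0.32 for Cd63 and 2.48 ± 1.00 for Lyz2 (SD, 4 mice). Cells with all 3 genes had 32909 to 36146 median panel reads, against 16483 to 20574 for cells with none. On the log-normalised level Lipa differed by 0.14 ± 0.069 and was higher in all 4 mice, rank 48 of 274. The CPM were higher in 3 of 4 mice, with Abi3-/- mouse 2 the exception. The log2 ratio of Lipa was 0.020 without Abi3+/+ mouse 2 and 0.19 without Abi3-/- mouse 2.

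Thinning each cell to 12465 reads left the steps of Cd63 and Lyz2 nearly as they were, at 1.77 and 2.57. It left out 96 and 600 shallower Trem2-positive cells of the Abi3-/- mice, against 428 and 182 of the Abi3+/+ mice. Thinned, Lipa was read in 10.1% ± 6.34 of cells with none of the genes and in 17.8% ± 10.4 of cells with all 3 (SD, 4 mice), at 231 ± 146 and 260.3 ± 140 CPM. Its share was then 16.8%, 12.7%, 9.10% and 1.88% with none and 27.8%, 22.8%, 17.0% and 3.73% with all 3, so it was higher in each of the 4 mice at 1 depth too. The thinned CPM were also higher in all 4 mice, with a log2 ratio of 0.30, and in Abi3-/- mouse 2 they were 279 with none and 309 with all 3. Because a cell with Lipa held many reads whatever its depth, thinned reads are not thinned molecules.

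Lyz2 is also a gene of macrophages, so the 9 markers of macrophages or monocytes were followed in the same cells. At least 1 of them was read in 2.43% to 3.81% of cells with none of Apoe, Cst7 and Itgax and in 3.12% to 6.11% of cells with all 3, over the 4 mice. Their summed level was 75.4 to 97.5 CPM with none and 48.9 to 130 with all 3. Without every cell that had such a read, an alternative chosen after seeing the data, the step was 1.82 ± 0.45 for Cd63, 2.62 ± 1.07 for Lyz2 and 0.14 ± 0.059 for Lipa.

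Other lysosomal and endosomal genes of the panel did not move as 1 group along the number. Of the 9 genes listed, 4 were higher and 2 were lower in all 4 mice, where 28.1% and 38.7% of all 274 genes were. Their median step was 0.043, against -0.008 over all 274 genes. Ctsd, the aspartic protease cathepsin D, was higher by 0.44 ± 0.096, and Lgals3, a galectin that gathers on damaged lysosomes, by 0.51 ± 0.26. Lamp3, a lysosomal membrane protein best known from dendritic cells, was at -0.087 ± 0.052. Lamp1, the abundant lysosomal membrane protein, was at 0.043 ± 0.057, with 2 mice above and 2 below 0. Cst7 is in the list and also sets the number.

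Cd63 had company among tetraspanins only in Cd9. Cd9 was higher by 0.37 ± 0.073 in all 4 mice, whereas Cd37 was at -0.49 ± 0.13 and Tspan32 at -0.088 ± 0.033, each lower in all 4. In lipid handling, Trem2 itself was higher by 0.20 ± 0.070 and Cd36, a scavenger receptor, by 0.050 ± 0.040. Of the 4 homeostatic genes 3 were lower in all 4 mice, among them Selplg at -1.46 ± 0.32 and Cx3cr1 at -1.35 ± 0.36, while Cd34 was at -0.041 ± 0.25 with 2 mice above and 2 below 0. Of the 12 disease-associated genes listed 9 were on the panel, and all 9 were higher in all 4 mice, among them Cst7 and Itgax, which set the number. All 4 MHC class II genes were higher and all 5 immediate early genes lower in all 4 mice. Over all 274 genes, 28.1% were higher and 38.7% lower in all 4.

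In CPM, Lyz2 was highest in macrophages or monocytes in every mouse but Abi3-/- mouse 1, and Cd63 was highest in a small group without a name, and T cells held little of any member. Cells were put in a group by the number of its markers that had a read, and the cut for each group was set after the marker counts had been seen. There were 108 cells with 3 or more of 9 macrophage or monocyte markers, 112 with 5 or more of 8 neutrophil markers, 309 with 5 or more of 11 T cell markers and 53 with 5 or more of 9 B cell markers. A further 90 cells had F5, Thbd or Tgfb3 and no Trem2, and are called by those genes.

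T cells were taken as the background, and free RNA, doublets and reads of the cells' own were not told apart in them. Their shares are thus not a measure of free RNA alone. Cd63 was read in 2.11% and 8.82% of T cells of the Abi3-/- mice, against 10.3% and 1.28% of the Abi3+/+ mice. Lyz2 was read in 5.26%, 5.88%, 5.88% and 2.56%. T cells held a median of 15117 to 17450 reads, against 19789 to 24707.5 in Trem2-positive cells, so the depths were not far apart. T cells that had no Trem2 read held Cd63 in 0%, 3.17%, 8.20% and 0% of cells, and Lyz2 in 4.44%, 3.17%, 4.92% and 0%. With 0 of 90 and 0 of 70 such cells, a share of up to 3.33% and 4.29% is allowed for Cd63 in Abi3-/- mouse 1 and Abi3+/+ mouse 2.

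Lipa stood over that background in 3 mice and not in the fourth. T cells held Lipa in 5.26%, 0%, 1.47% and 0% of cells, against 19.4%, 15.4%, 10.7% and 2.20% of Trem2-positive cells. In Abi3+/+ mouse 2, where 66 Trem2-positive cells had Lipa, 0 of 78 T cells allow a share of up to 3.85%, so the Lipa share of its Trem2-positive cells is not told apart from background. That mouse also had Lipa in 0 of 25 macrophages or monocytes, 0 of 19 neutrophils, 0 of 26 B cells and 0 of 41 cells with F5, Thbd or Tgfb3. Each of these counts of 0 allows a share above the one in its Trem2-positive cells, so whether Lipa was low in them too is not known.

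Macrophages or monocytes held Lyz2 in 93.8%, 97.8%, 76.2% and 84.0% of cells, and it took 65916, 221680.0 and then 95083 and 201404 CPM in Abi3-/- mice 1 and 2 and Abi3+/+ mice 1 and 2. Every mouse was above its own Trem2-positive cells. These groups held 16, 46, 21 and 25 cells. Many of them also had Trem2 reads, and the 9, 21, 14 and 11 cells without Trem2 held 16183, 172594, 34677 and 197911 Lyz2 CPM. In Abi3-/- mouse 1 the value without the Trem2-positive ones was thus far lower and near that of its Trem2-positive cells.

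Cd63 in macrophages or monocytes came with Trem2. It was read in 31.3%, 23.9%, 19.0% and 36.0% of them, but in 11.1%, 4.76%, 7.14% and 0% of those without Trem2, where it was 1 cell in each of 3 mice. Lipa was read in 25.0%, 17.4%, 4.76% and 0% of macrophages or monocytes.

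Neutrophils held Lyz2 in 80%, 96.3%, 83.3% and 94.7% of 5, 82, 6 and 19 cells, at 12749, 59538, 24028 and 48806 CPM. Where a mouse had 10 or more neutrophils, in Abi3-/- mouse 2 and Abi3+/+ mouse 2, the level lay below that of its macrophages or monocytes and above that of its Trem2-positive cells. By share the order of the 2 groups was not the same in every mouse, since it was higher in macrophages or monocytes in both Abi3-/- mice and higher in neutrophils in both Abi3+/+ mice. Cd63 was read in 60.0%, 45.1%, 50% and 26.3% of neutrophils, at 1838, 1274, 829 and 670.0 CPM, which is lower than in Trem2-positive cells in every mouse. Lipa was read in 0%, 4.88%, 16.7% and 0%.

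Cells with F5, Thbd or Tgfb3 had the highest Cd63 CPM, though not the highest share in every mouse. It was read in 66.7%, 90.3%, 66.7% and 90.2% of 6, 31, 12 and 41 cells, and it took 25734, 52158, 43484 and 48498 CPM, above Trem2-positive cells in all 4 mice. They had 44 to 49.5 median genes, close to the limit of 40. Lipa was read in 33.3%, 29.0%, 16.7% and 0% of them. Lyz2 was read in 16.7%, 16.1%, 25.0% and 2.44%, yet at up to 73067 CPM in Abi3-/- mouse 1, above the macrophages or monocytes of that mouse, where it came from 1 cell. B cells held Cd63 in 1 of 53 cells, Lipa in 1 and Lyz2 in 5.

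**Figure D2:**
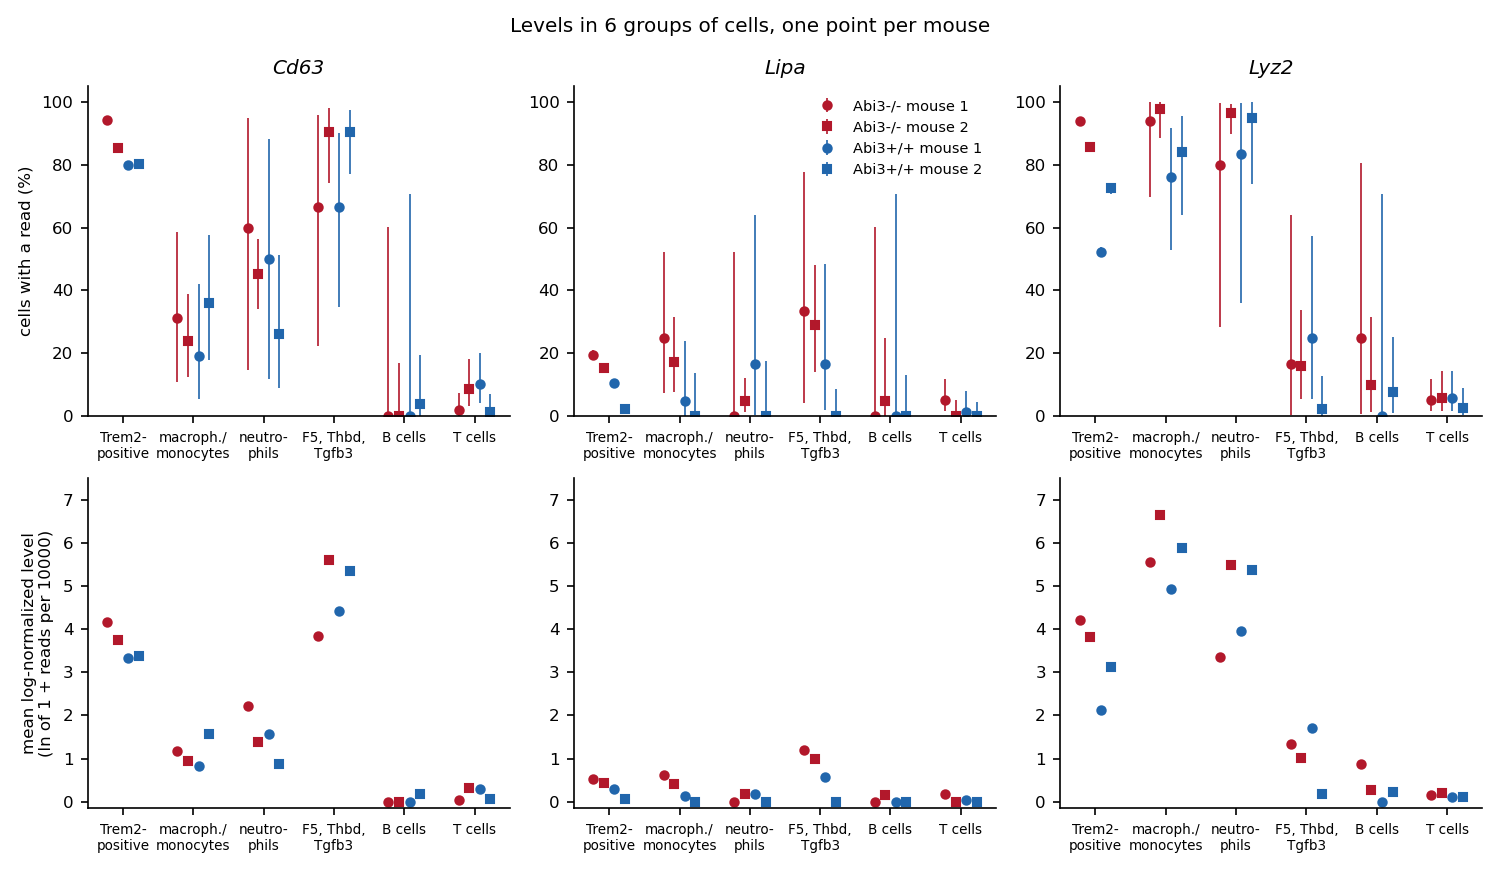
Share of cells with a read (percent, upper row, bars are exact 95% intervals over cells) and mean log-normalised level (natural log, lower row) of Cd63, Lipa and Lyz2 in 6 groups of cells, 1 point per mouse (red Abi3-/-, blue Abi3+/+, circles mouse 1, squares mouse 2). In the lower row Lyz2 is highest in macrophages or monocytes in every mouse, Cd63 is highest in cells with F5, Thbd or Tgfb3 in 3 of 4 mice, all but Abi3-/- mouse 1, and T cells are near 0 for all 3 genes; wide intervals mark the groups with few cells.

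Cd63 and Lyz2 were read together in many cells, and Lipa went only weakly with either. Over Trem2-positive cells the Spearman correlation of Cd63 and Lyz2 was 0.351 ± 0.079 (SD, 4 mice, range 0.238 to 0.415), and 0.356 in cells thinned to 1 depth. Cd63 and Lipa correlated at 0.044 ± 0.021, and Lipa and Lyz2 at 0.042 ± 0.019. Cells of a mouse share a library, and these coefficients are descriptions.

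Much of the correlation of Cd63 and Lyz2 followed the number of Apoe, Cst7 and Itgax. Within cells with none it was 0.152, with 1 it was 0.162, with 2 it was 0.194 and with 3 it was 0.076, each a mean of 4 mice. In cells with 3 genes the lowest mouse was at -0.00061, where nearly every cell had both genes. Within a number, the means of 4 mice lay between -0.0034 and 0.048 for Cd63 and Lipa and between -0.015 and 0.026 for Lipa and Lyz2. Single mice ran from -0.072 to 0.104 and from -0.063 to 0.071.

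**Figure D3:**
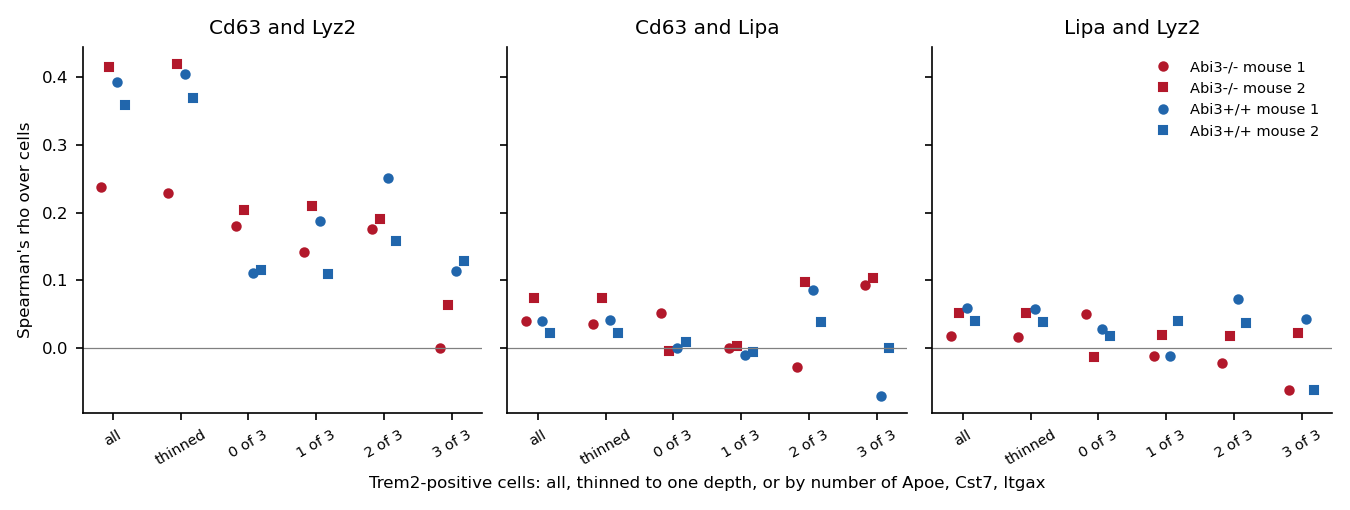
Spearman correlation (vertical axis, no unit) between each pair of Cd63, Lipa and Lyz2 over Trem2-positive cells, 1 point per mouse, for all reads, for cells thinned to 1 depth and within each number of Apoe, Cst7 and Itgax. Cd63 and Lyz2 lie between 0.238 and 0.415 over all cells and lower within each number, while both pairs with Lipa stay near 0.

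Presence of reads was also taken pair by pair. Of Trem2-positive cells with Cd63, 94.4%, 89.0%, 57.4% and 77.0% had Lyz2 in Abi3-/- mice 1 and 2 and Abi3+/+ mice 1 and 2, against 83.8%, 67.1%, 32.1% and 54.3% of those without Cd63. Lipa was read in 19.7%, 15.9%, 11.3% and 2.25% of cells with Cd63, against 15.4%, 12.4%, 8.40% and 2.02% of those without. With Lyz2 it was read in 19.7%, 15.9%, 12.4% and 2.40%, against 15.3%, 12.3%, 8.88% and 1.70% without, so Lipa was somewhat more often read beside either gene in every mouse. All 3 members were read in 17.6%, 12.3%, 5.93% and 1.44% of cells. None was read in 0.870% and 4.28% of cells of the Abi3-/- mice, against 12.6% and 9.0% of the Abi3+/+ mice. The largest class was cells with Cd63 and Lyz2 and no Lipa, at 71.1%, 63.4%, 39.9% and 60.2%.

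The panel genes most like each member were read from the Spearman correlation over thinned Trem2-positive cells, among 128 or 129 genes with a read in at least 10% of these cells in every mouse. For Cd63 they were Cst7 at 0.388, Apoe at 0.377 and Lyz2 at 0.356. For Lyz2 they were Apoe at 0.503, Cst7 at 0.482 and Cd63 at 0.356. For Lipa the highest were Hif1a, a hypoxia-responsive transcription factor, at 0.053, Apoe at 0.053 and Cst7 at 0.052, which are too weak to set Lipa beside any gene. Selplg, a homeostatic gene of microglia, was lowest for all 3, at -0.423 for Cd63, -0.436 for Lyz2 and -0.052 for Lipa.

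The genotypes were compared with the mouse as the replicate. Reads were summed over the Trem2-positive cells of each mouse, and edgeR's quasi-likelihood test was run over 325 panel genes with Benjamini-Hochberg adjustment. With 2 mice a genotype, nothing states whether they were littermates, and the p-values measure the spread between these 4 animals. No gene passed an adjusted p of 0.05 in edgeR (0% of 325), 21 genes (6.46%) had an unadjusted p under 0.05, and DESeq2 called 8, none of them a member, while limma called 0.

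Cd63 was higher in both Abi3-/- mice, with a log2 fold change of 0.55 (SE 0.13), an edgeR p of 0.0133 and an adjusted p of 0.652. Lyz2 had a log2 fold change of 0.69 (SE 0.26) and an adjusted p of 0.658 in edgeR. Lipa had the largest, 1.44 (SE 0.84), with an adjusted p of 0.831. Without Abi3+/+ mouse 2 the Lipa value was 0.70, and without Abi3+/+ mouse 1 it was 3.05, so a single mouse sets its size. Without Abi3+/+ mouse 1 the Lyz2 value was 0.41, and without Abi3+/+ mouse 2 it was 1.03. Library size alone in place of TMM moved the median of all genes from 0.01 to -0.19, and Cd63, Lipa and Lyz2 to 0.35, 1.26 and 0.48. With no cell filter Cd63 and Lyz2 were at 0.26 and 0.27.

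**Figure D4:**
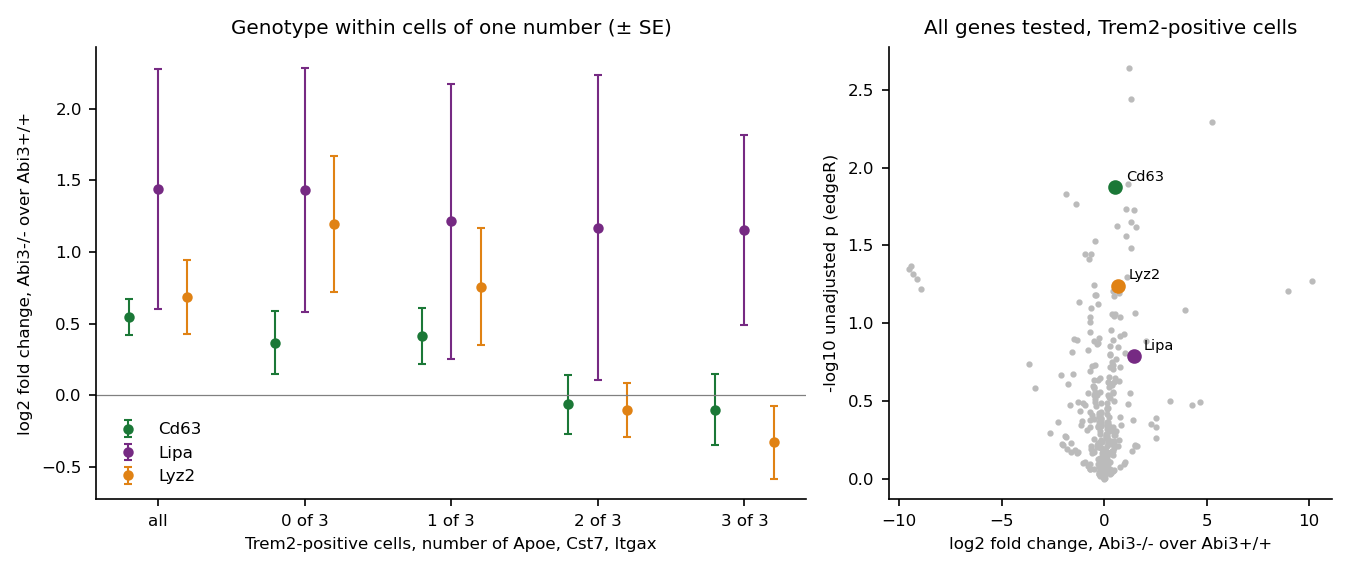
Left, log2 fold change Abi3-/- over Abi3+/+ of Cd63, Lipa and Lyz2 from edgeR (points, bars are SE) in all Trem2-positive cells and in cells with 0, 1, 2 or 3 of Apoe, Cst7 and Itgax; right, log2 fold change against minus log10 of the unadjusted p for 325 panel genes, with the members marked. Cd63 and Lyz2 are above 0 in all cells and in cells with 0 or 1 gene and near or below 0 with 2 or 3, Lipa is above 0 throughout with wide bars, and many genes have smaller p-values than Lipa.

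The mean log-normalised level gave the same order with every mouse shown. Cd63 was at 4.16 and 3.74 in the Abi3-/- mice, against 3.34 and 3.38 in the Abi3+/+ mice, a difference of 0.592. Lyz2 was at 4.21 and 3.82, and then at 2.12 and 3.13, a difference of 1.39. Lipa was at 0.533 and 0.425, and then at 0.307 and 0.0644, a difference of 0.293. Without Abi3-/- mouse 1 the Cd63 difference was 0.382. Without Abi3+/+ mouse 1 that of Lyz2 was 0.883, and without Abi3+/+ mouse 2 that of Lipa was 0.172. The genotypes did not overlap for any member, as for 18.6% of 274 genes that were higher in both Abi3-/- mice. The exact two-sided permutation test over 4 mice gave p = 0.333 for each, the smallest it can give.

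Trem2-positive cells with a marker of macrophages or monocytes made up 3.34% and 4.56% of the Abi3-/- mice, against 3.77% and 3.4% of the Abi3+/+ mice, with summed marker levels of 95.8, 101.5, 101.1 and 125 CPM and 0 to 2 of the 9 markers at 0. Without these cells, an alternative chosen after seeing the data, the differences were 0.596 for Cd63, 0.294 for Lipa and 1.41 for Lyz2.

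The Abi3-/- mice had fewer cells with none of the 3 genes and more with all 3. Cells with none of Apoe, Cst7 and Itgax made up 18.0% and 31.1% of Trem2-positive cells in the Abi3-/- mice, against 52.0% and 48.0% in the Abi3+/+ mice. Cells with all 3 made up 14.7% and 18.6%, and then 8.88% and 12.9%. When each number was given the same weight in every mouse, an alternative chosen after seeing the data, the difference of Cd63 was 0.260, that of Lyz2 0.940 and that of Lipa 0.274. The Cd63 values of Abi3-/- mouse 2 and Abi3+/+ mouse 1 were then 3.58 and 3.57. Among all genes 16.8% were higher in both Abi3-/- mice under this weighting.

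Within cells of 1 number, edgeR called no gene at any of the 4 numbers (0% of 265 to 293 genes), with 28, 11, 10 and 8 genes at an unadjusted p under 0.05 for numbers 0 to 3 (10.3%, 3.75%, 3.57% and 3.02%) and 12, 3, 3 and 3 calls in DESeq2. Cd63 had log2 fold changes of 0.37, 0.41, -0.06 and -0.10 for numbers 0 to 3, and Lyz2 of 1.20, 0.76, -0.10 and -0.33. Lipa was at 1.43, 1.21, 1.17 and 1.16. Single mice set the size of several of these values and the sign of some. With 2 genes Cd63 ran from -0.16 to 0.10 and Lyz2 from -0.20 to 0.068 with a mouse left out. With 3 genes Cd63 ran from -0.28 to 0.066. Without Abi3-/- mouse 1 Cd63 was at 0.083 with none of the genes and at 0.22 with 1, and without Abi3-/- mouse 2 it was at 0.70 with none. With 1 gene Lyz2 was at 0.30 without Abi3+/+ mouse 1 and at 1.35 without Abi3+/+ mouse 2. With 3 genes Lyz2 was at -0.13 without Abi3-/- mouse 1 and at -0.55 without Abi3-/- mouse 2. The Lipa values ran from 0.37 to 3.54 over the 4 numbers with a mouse left out, the lowest at each number without Abi3+/+ mouse 2 and the highest without Abi3+/+ mouse 1. The lowest adjusted p of a member among these edgeR fits was 0.523, for Lyz2 in cells with none of the genes. In those cells the Lyz2 value was 0.74 without Abi3+/+ mouse 1, and without Abi3+/+ mouse 2 it was 1.87 with an adjusted p of 0.046 in edgeR (0.046 to 0.699 over all alternatives tried), and without Abi3+/+ mouse 1 the Lipa value was 2.98 with an adjusted p of 0.0493 (0.0493 to 1.00 over all alternatives). The single mouse left in Abi3+/+ is then assumed to vary like the others.

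Per mouse, the log-normalised Lyz2 level was higher in both Abi3-/- mice with 0, 1 and 2 genes and lower in both with 3. Lipa was higher in both Abi3-/- mice at all 4 numbers, and Cd63 was higher in both only at number 1 and overlapped between the genotypes at numbers 0, 2 and 3. Of 274 genes, 16.8%, 14.6%, 23.7% and 30.7% were higher in both Abi3-/- mice at numbers 0 to 3, and 13.5% were lower in both at number 3.

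Whether the step from none to 3 genes differed between the genotypes was tested as an interaction in edgeR, with the mouse as a term, over 294 genes. Lyz2 had the smaller step in the Abi3-/- mice, by -1.71 on the log2 scale (SE 0.49), with a p of 0.0142 and an adjusted p of 0.289. The Cd63 value was -0.54 (SE 0.33, adjusted p 0.673), but -0.067 without Abi3-/- mouse 1, -0.94 without Abi3-/- mouse 2 and -0.34 without Abi3+/+ mouse 1, and that of Lipa -0.46 (SE 0.35, adjusted p 0.842), but -0.30 without Abi3+/+ mouse 2. edgeR called no gene (0%), 29 genes (9.86%) had an unadjusted p under 0.05, and DESeq2 called 19, none a member, with an adjusted p of 0.694 for Lyz2. Without Abi3-/- mouse 1, the mouse with the smallest step, the Lyz2 value was -1.20 and its adjusted p in edgeR was 0.0346 (0.0346 to 0.694 over all alternatives), and without Abi3+/+ mouse 1 the value was -1.11. The p without Abi3-/- mouse 1 likewise assumes that the single mouse left in Abi3-/- varies like the others.

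Gene lists of the panel gave no call between the genotypes in Trem2-positive cells either. The 9 lysosomal and endosomal genes had a median log2 fold change of 0.10, the 3 tetraspanins 0.41 and the 9 disease-associated genes 0.41, against 0.01 over all 325 genes. The 4 homeostatic genes had a median of 0.17 and the 5 immediate early genes of -0.50. In each of these lists 0 genes passed in edgeR.

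In macrophages or monocytes the log2 fold change was -0.40 (SE 0.53) for Cd63 and 0.19 (SE 0.83) for Lyz2, each with an adjusted p of 0.953 in edgeR. In T cells, taken above as the background, the values were 0.27 (SE 1.25) and 0.61, each with an adjusted p of 0.978. Of 309 T cells over all mice, only 16 had Cd63 and 15 had Lyz2. The sign of each value turned with a mouse left out. In macrophages or monocytes Cd63 then ran from -0.81 to 0.30 and Lyz2 from -0.98 to 0.90. In T cells they ran from -2.27 to 1.19 and from -1.52 to 3.64. No fold from all 4 mice is given for Lipa in either group, since it was read in at most 1 cell of each Abi3+/+ mouse. For the same reason nothing is drawn from its range in T cells with a mouse left out, which is listed with the processing alternatives. No gene of 255 and none of 287 was called (0%), with 18 (7.06%) and 10 (3.48%) at an unadjusted p under 0.05, and no other tool was run on these groups. Neutrophils were not compared, because Abi3-/- mouse 1 and Abi3+/+ mouse 1 had 5 and 6 of them.

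Cells at the edges of the filter were looked at for each member. Among cells just inside the gene limit Cd63 was read in 70.0% to 94.5% of cells over the 4 mice, and just outside in 80.5% to 95.1%. Lyz2 was read in 52.9% to 68.9% just inside and in 32.7% to 51.2% just outside. Lipa was read in 0% to 10.0% just inside and in 4.94% to 10.2% just outside. These cells had fewer reads outside the limit, with medians of 5679 to 9414 against 9060 to 12258.5. Cells above 59300 reads, all groups together, held Lyz2 in 97.7% to 100%, at 18230 to 36302 CPM, and Cd63 in 95.8% to 98.6%. They held Lipa in 48.1% and 38.9% in the Abi3-/- mice, against 30.8% and 9.24% in the Abi3+/+ mice. The Lipa CPM there were 280, 259, 161 and 58.6 in that order.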

How the data were processed

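The measurement was targeted single-cell RNA sequencing (BD Rhapsody immune panel) of 4 libraries, 1 mouse each. The authors ran the BD Rhapsody Targeted Analysis Pipeline with default settings and deposited whole-number read counts per cell and gene after its correction of recurrent errors (DBEC), which removes low counts. The build in the submitters' processing notes is mm10. The pipeline's version and aligner are not given in the sources used here.

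Cells with 40 or more genes and at most 59300 reads were kept. The study words its lower limit as reads, and it was applied here to genes. No doublet caller was run, and 0 cells passed more than 1 marker gate. A Trem2-positive cell had a Trem2 read and passed no other gate. The levels used were the share of cells with a read (exact Clopper-Pearson 95% intervals), CPM (reads for each 1000000 panel reads of the same cells) and the mean of ln(1 + reads per 10000). For comparisons at 1 depth, cells were thinned to 12465 reads, the 10th percentile. A count of 0 was given an upper limit of 3 cells.

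Reads summed per mouse were tested with edgeR 4.0.16 in R 4.3.3 (quasi-likelihood, filterByExpr, TMM, Benjamini-Hochberg over all genes tested, threshold 0.05), with DESeq2 1.42.0 and limma 3.58.1 as alternatives. Tested on simulated data with 4-fold changes in 200 of 325 genes, the test on Trem2-positive cells recovered 99.5% at a dispersion of 0.01. It recovered 0% at 0.625, the common dispersion over all genes seen here. Every simulated gene had that same dispersion, so the recovery of Cd63, Lipa or Lyz2 at their own dispersions is not known. The SE given with edgeR values is the size of the log2 fold change divided by the square root of the F statistic of its test. Python 3.11.15 was used elsewhere.

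The members and all lists were chosen with earlier results of these data known. Genes named beside the members were the 3 with the highest Spearman correlation to each, among genes read in at least 10% of Trem2-positive cells of every mouse, and the genes of the lists. The lists were lysosome and endosome, tetraspanins, lipid handling, myeloid granule genes, homeostatic, other disease-associated, immediate early, MHC class II and cell cycle genes. Alternatives covered normalisation, filters, depth, gates, clusters made without the members, and each mouse left out. Values of some single genes in these lists are not reported here.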

Additional observations from a re-analysis of the deposited data

Results flagged for a closer look

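Cells with fewer than 40 genes were used in no comparison between genotypes, numbers or cell groups, other than the alternative with no cell filter, and Cd63 stood out among them. It was read in 54.9% of 870 such cells of Abi3-/- mouse 1, 67.2% of 1502 of Abi3-/- mouse 2, 56.5% of 1917 of Abi3+/+ mouse 1 and 58.3% of 1385 of Abi3+/+ mouse 2, which is what drew attention to them, since T cells of the same libraries held it in at most 10.3%. These cells had a median of 14 to 18 genes and 2358 to 2500 reads. Cd63 took 31281, 42564, 29718 and 37078 CPM among their reads, 3.01, 4.22, 3.66 and 4.63 times the level in the kept Trem2-positive cells. Lyz2 was read in 13.4%, 19.0%, 9.02% and 12.3% of them, and Lipa in 0.939% to 2.996%. Trem2 was read in 20.7%, 22.1%, 22.9% and 22.3% of those with Cd63 and in 19.1%, 23.9%, 21.2% and 17.3% of those without. F5, Thbd or Tgfb3 was read in 19.9%, 41.4%, 9.13% and 21.6% of those with Cd63, against 2.81%, 6.29%, 2.04% and 1.90% of those without. Their part in the Cd63 level was not tested.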

How the results depend on the processing

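The steps of Cd63 and Lyz2 with the number of Apoe, Cst7 and Itgax kept their direction under every alternative run, at 1.73 to 1.93 and 2.49 to 2.73, and at 1.73 to 2.05 and 2.20 to 3.03 with a mouse left out. The Lipa step was 0.218 with no cell filter and 0.0865 without the fifth of cells with the most reads. The correlation of Cd63 and Lyz2 was 0.152, 0.162, 0.194 and 0.0758 within numbers 0 to 3, that of Cd63 and Lipa 0.0139 within 0 and -0.00341 within 1, and that of Lipa and Lyz2 0.0202, 0.00848 and -0.0154 within 0, 1 and 3. In macrophages or monocytes the Cd63 level was 0.738 with 1 more marker asked, 0.110 without Trem2 cells and 1.52 in clusters made without the members, and Lyz2 was 4.76 without Trem2 cells. In T cells without Trem2, Lyz2 was 0.0784. With 2 of F5, Thbd and Tgfb3 asked, Lipa and Lyz2 were at 0 in those cells. Between genotypes DESeq2 called 8 genes in Trem2-positive cells, 12, 3, 3 and 3 for numbers 0 to 3 and 19 in the interaction. With a mouse left out edgeR called 0 to 5, 0 to 2, 0 to 2 and 0 to 2 genes for numbers 0 to 3, 0 to 8 in the interaction and 0 to 1 in T cells. In cells with 2 genes Cd63 turned to 0.00049 in DESeq2 and 0.0949 in limma, and Lyz2 to 0.33 in limma, and the Lipa interaction to 0.0935 in limma. With a mouse left out, Cd63 ran from -0.16 to 0.10 and Lyz2 from -0.20 to 0.0683 with 2 genes, and Cd63 from -0.28 to 0.0657 with 3. In macrophages or monocytes Cd63 ran from -0.81 to 0.30 and Lyz2 from -0.98 to 0.90, and in T cells Cd63 ran from -2.27 to 1.19, Lipa from -6.27 to 9.57 and Lyz2 from -1.52 to 3.64. The cause was not tested. With the mouse number as a replicate block, Cd63, Lipa and Lyz2 were at 0.55, 1.87 and 0.72 in Trem2-positive cells (edgeR adjusted p 0.39, 0.479 and 0.396), and 33 genes in place of 21 had an unadjusted p under 0.05, none adjusted. The numbers are only names, and deviations of the mice numbered 1 correlated at 0.265 over 182 genes. With 2 mice a genotype, the exact test cannot fall below 0.333. Of all alternative values 19 reversed the direction of the main value. Those that passed a threshold that the main value did not came from fits with 1 mouse left in a genotype. No member passed an adjusted p of 0.05 in the main edgeR fits, so no such call could be lost.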

Other observations

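Trem2-positive cells with all 4 of the MHC class II genes Cd74, H2-Aa, H2-Ab1 and H2-Eb1, which present antigen, numbered 110 and 20 in the Abi3-/- mice, against 32 and 18 in the Abi3+/+ mice. Their log-normalised Lyz2 level was 4.22, 5.39, 4.61 and 6.15, against 4.21, 3.81, 2.10 and 3.12 in the other Trem2-positive cells. The difference was thus 0.0045 in Abi3-/- mouse 1 and 1.58 to 3.03 in the other 3 mice. Of 274 genes 12.0% were higher in these cells in all 4 mice, and Lyz2 is one of them, by a margin near 0 in Abi3-/- mouse 1. Markers of macrophages or monocytes moved with it, since at least 1 of 9 was read in 9.09%, 25.0%, 28.1% and 72.2% of these cells, against 2.99% to 4.47% of the others. Their summed level was 518 to 2824 CPM against 69.1 to 102, and 3 to 5 of the 9 were at 0. Without the cells that had such a read the Lyz2 difference was 1.09 ± 0.92 over 4 mice, in place of 1.78 ± 1.33, and Lyz2 was then higher in 3 of 4 mice, with -0.096 in Abi3-/- mouse 1. In Abi3+/+ mouse 2 it was 0.88 and rested on 5 cells. Cd63 differed by 0.27 ± 0.31 in all of these cells and by 0.74 ± 0.62 without those that had such a read, higher in 3 of 4 mice in both. Lipa differed by -0.027 ± 0.11.

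Cells with 4 or 5 of the immediate early genes Jun, Junb, Fosb, Egr1 and Dusp1, which respond within minutes to stimulation or to handling of tissue, had less Cd63 and Lyz2 reads. The difference was -0.40 ± 0.19 for Cd63 and -0.64 ± 0.35 for Lyz2, lower in 4 of 4 mice with 960 to 2281 such cells each, where 21.5% of 274 genes were lower in all 4. Within cells of 1 number of Apoe, Cst7 and Itgax it was -0.15 ± 0.081 and -0.26 ± 0.16. Lipa differed by 0.0096 ± 0.057. The immediate early genes were themselves lower with more of Apoe, Cst7 and Itgax.

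Cells with 2 or more of Top2a, Mki67, Ube2c and Aurkb, genes of dividing cells, were few, at 10 to 42 a mouse. Cd63 differed by -0.61 ± 0.44 in them, with 1 mouse above 0, and Lyz2 by -0.025 ± 0.52. Whether a cell with none or with all 3 of Apoe, Cst7 and Itgax had Cx3cr1, a homeostatic gene, went with differences of -0.046 and 0.062 for Cd63 and of 0.037 and -0.048 for Lyz2, cells without Cx3cr1 minus cells with it, each smaller in size than its SD over mice.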
